A study of Mus musculus with 27 samples.

Results

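Transcripts of 35 genes that handle amino acid nitrogen, sulfur and single carbon units were followed in mouse liver, out of 22869 genes in the deposited count table. The genes were listed by name, for their known function, but with earlier results of these data known. Shares of them called, set beside those of all genes, are therefore descriptive. By role they were 6 genes of the urea cycle, 5 of transamination and glutamate, 5 of tryptophan and tyrosine breakdown, 9 of the methionine cycle and sulfur amino acids, 5 of serine synthesis and folate, 4 of branched-chain amino acids and proline, and Nnmt, which methylates nicotinamide. All 35 were in the table, and 34 passed the filter on low counts. Phgdh, the first enzyme of serine synthesis from glucose, did not pass, with 0 to 4 reads in any library. Psat1, the next enzyme of that route, passed with 3 to 33 reads per library, so its folds are imprecise.

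The livers came from C57Bl/6 mice killed 10 days after injection of adeno-associated virus serotype 8 (AAV8), a vector that reaches hepatocytes. Mice with a floxed Hdac3 gene given Cre recombinase made the HDAC3 LKO group (n = 4), mice with a floxed Scap gene given Cre the SCAP LKO group (n = 4), and mice with both genes floxed given Cre the Double LKO group (n = 3). The controls were 6 libraries from floxed livers given GFP in place of Cre, 2 each from the HDAC3-floxed, SCAP-floxed and HDAC3/SCAP-floxed lines. All mice were fed freely, and every group carried floxed alleles and an AAV8 vector. No mice received Cre without a floxed allele, so an effect of Cre cannot be told apart from gene loss in a comparison with GFP. The labels do not say that replicates are different animals, so the tests cover the spread between these samples, which may be technical; a library is called a liver below. No source used here names the promoter driving Cre. HDAC3 removes acetyl groups from histones within the NCoR and SMRT corepressor complexes, and SCAP carries SREBP transcription factors to the site where they are activated.

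Hepatocytes dispose of ammonia through the urea cycle, in which Cps1 and Otc act in mitochondria and Ass1, Asl and Arg1 in the cytosol, with Nags making the activator of Cps1. Methionine is turned into S-adenosylmethionine by Mat1a, its methyl group is passed on (in liver largely by Gnmt), and the homocysteine left over is either methylated again by Bhmt or passed through Cbs and Cth to cysteine, from which Cdo1 and Csad lead to taurine. Shmt1, Shmt2 and Mthfd1 move single carbons from serine onto folate. Urea cycle genes are known to be higher near the portal vein.

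Library totals ranged from 3546597 to 20622671 counts. The members together held 1.73 to 3.22% of the counts of a library. Levels are counts scaled to library size (CPM, with TMM factors) and are compared between libraries and not between genes. Hdac3 was at 7.46 to 10.6 CPM in HDAC3 LKO livers and 9.20 to 12.4 CPM in Double LKO livers, against 34.3 to 40.7 CPM in GFP controls. Scap was at 43.9 to 59.03 CPM in SCAP LKO livers and 45.4 to 50.8 CPM in Double LKO livers, against 91.2 to 138.5 CPM in GFP controls. Both go with the labels. Hepatocyte markers were abundant, with Alb, the gene of serum albumin, at 75684 CPM or more in 16 libraries and at 52898 CPM in Double LKO library 2, against 89459.9 to 103105 CPM in GFP controls. Double LKO library 2 stood apart, with 3736618 counts: 18 of 34 members lay below all 6 controls (28.9% of all tested genes did) and 5 lay above (27.3% did). Its hepatocyte markers summed to 76883 CPM, against 119512 to 133602 CPM in GFP controls, and their part in its low values was not tested. SCAP LKO replicate 4 had 16 of 34 members below the controls, against 16.6% of all tested genes. Among the controls, 20 of 34 members were higher in replicate 1 of the HDAC3-floxed line than in the other 5, against 20.8% of all tested genes. Values below include these libraries, and values without them follow where stated. In RNA from whole liver, fewer cells of a type and less RNA per cell cannot be told apart.

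**Figure D1:**
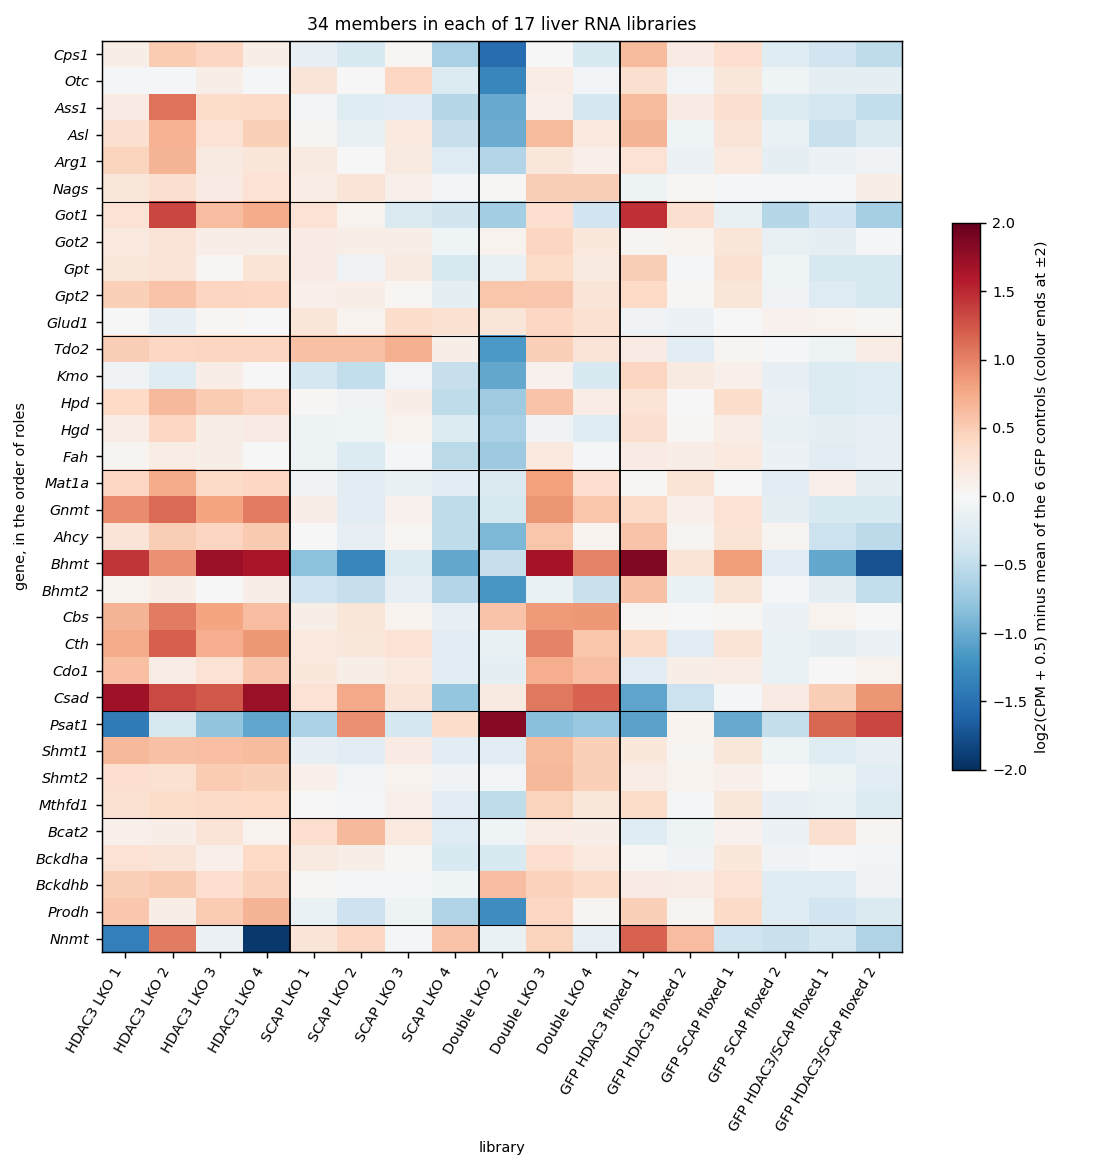
Level of each of the 34 tested members (rows, in the order of roles) in each of the 17 libraries (columns) as log2(CPM + 0.5) minus the mean of the 6 GFP controls; red is higher and blue lower. Double LKO library 2 is mostly blue through the urea cycle and tryptophan and tyrosine rows, and most methionine and sulfur rows are red in all 4 HDAC3 LKO libraries.

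In HDAC3 LKO livers, 9 of 34 members were higher than in GFP controls and 0 were lower at an adjusted p under 0.05 (edgeR quasi-likelihood test, adjusted over 12009 genes). Of all tested genes 13.9% were called, 7.88% higher and 6% lower. The 9 were Csad, Gnmt, Cth, Cbs and Mat1a of the methionine and sulfur group, the folate enzymes Shmt1 and Shmt2, the alanine transaminase Gpt2 and Bckdhb of branched-chain breakdown. The median log2 fold change of the members was 0.39, beside -0.02 over all tested genes, and 29 of 34 were positive. In 12 members every HDAC3 LKO liver lay above every control, as in 7.49% of all tested genes, and in 0 members every one lay below, as in 5.4%. At an unadjusted p under 0.05 there were 17 members, beside 27.2% of all genes.

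In SCAP LKO livers, 0 of 34 members were called against GFP controls by edgeR, beside 1.19% of all tested genes. There were 4 members at an unadjusted p under 0.05, beside 10.7% of all genes, and DESeq2 called 1, the glutamate dehydrogenase gene Glud1, beside 1.92% of all genes. The median log2 fold change of the members was -0.05, beside 0.01 over all genes. In 0 members did the SCAP LKO and control ranges part, beside 1.62% of all genes above and 2.19% below. In Double LKO livers, 6 members were higher than in GFP controls and 0 were lower, beside 7.56% higher and 6.34% lower among all tested genes (13.9% called in all). The 6 were Cbs, Bckdhb, Gpt2, Shmt2, Nags and Glud1, and the median of the members was 0.09 (0.32 without library 2), beside -0.01 over all genes. All Double LKO livers lay above all controls in 3 members, beside 7.09% of all genes, and below in 0, beside 7.27%. Without Double LKO library 2 there were 10 called members, beside 13% of all genes, with Cdo1, Cth, Shmt1, Mat1a and Gnmt among them and Gpt2 not, and without library 4 there were 3, Cbs, Bckdhb and Gpt2, beside 9.94% of all genes. The 3 knockouts share these controls, so their folds are set side by side and not correlated.

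**Figure D2:**
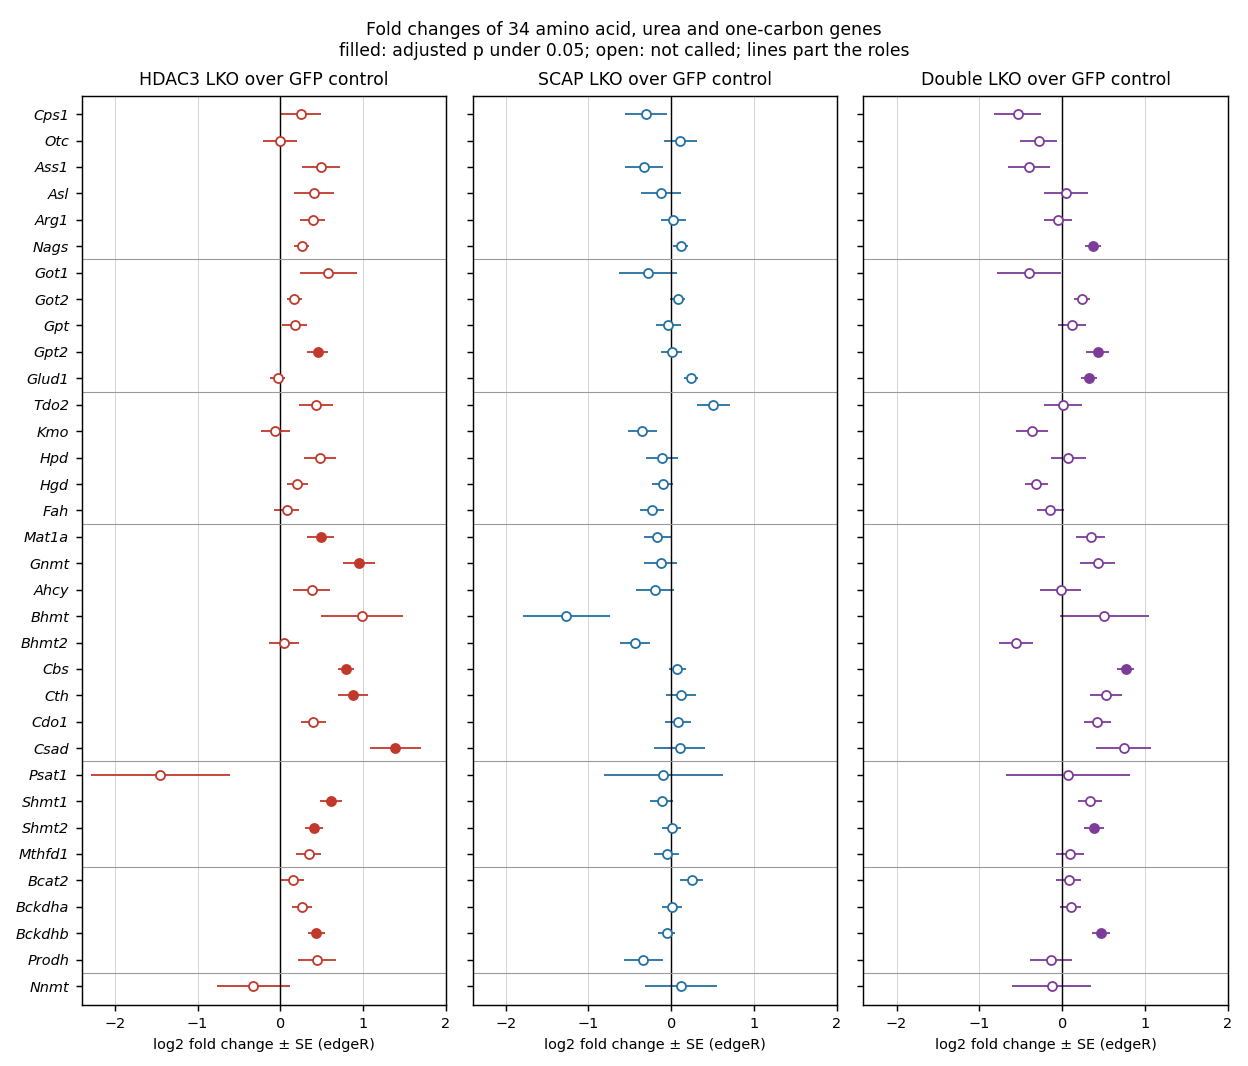
Log2 fold change ± SE over GFP controls of the 34 tested members (rows, by role) in HDAC3 LKO (n = 4), SCAP LKO (n = 4) and Double LKO livers (n = 3); filled circles have an adjusted p under 0.05. There are 9 filled circles for HDAC3 LKO, 0 for SCAP LKO and 6 for Double LKO, each on the positive side.

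Between knockouts both sides received Cre, but they came from different floxed lines. Gene loss and floxed line therefore cannot be told apart in any comparison between knockouts. Of 34 members, 11 were higher in HDAC3 LKO than in SCAP LKO livers and 0 were lower (14.7% of all tested genes were called, 8.52% higher and 6.15% lower). The median log2 difference of the members was 0.42, beside -0.02 over all genes. In 20 members every HDAC3 LKO liver lay above every SCAP LKO liver, as in 11.5% of all genes, and in 1, Glud1, every one lay below, as in 9.72%. Without SCAP LKO replicate 4 there were 6 called members, Cbs, Gnmt, Shmt1, Bckdhb, Bhmt and Mat1a, beside 10.7% of all genes. In Double LKO against SCAP LKO livers 2 members, Cbs and Bckdhb, were higher and 0 lower, beside 4.98% higher and 3.01% lower among all genes (7.99% called in all), with 9 at an unadjusted p under 0.05, beside 22% of all genes. The ranges parted upwards in 3 members, beside 9.13% of all genes, and downwards in 0, beside 9.11%. Without Double LKO library 2 there were 10, beside 8.76% of all genes. In Double LKO against HDAC3 LKO livers 0 members were called by edgeR, beside 1.31% of all genes (0.108% higher and 1.2% lower), with 8 at an unadjusted p under 0.05, beside 10.9%. Every Double LKO liver lay above every HDAC3 LKO liver for Glud1, beside 4.66% of all genes, and below for 5 members, Ass1, Bhmt2, Cps1, Csad and Hgd, beside 5.07%. DESeq2 called 2, Glud1 higher and Hgd lower in Double LKO, beside 2% of all genes. The controls of these floxed lines differed in the same direction, without overlap, for Glud1, Ass1, Bhmt2, Cps1 and Hgd, and in the opposite one for Csad. Cps1, for example, was at 4580 and 4199 CPM in HDAC3/SCAP-floxed controls and at 9309 and 6705 CPM in HDAC3-floxed controls. The contrast of Double LKO with the sum of both single knockouts on the log2 scale called 0 members and 0% of all genes by edgeR, with 2 members at an unadjusted p under 0.05, beside 5% of all genes, and DESeq2 called 0 members, beside 0.125% of all genes.

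The methionine cycle and sulfur amino acid genes held 5 of the 9 calls in HDAC3 LKO livers, and all 9 of them had positive folds, with a median log2 fold change of 0.79. Their summed level was 11291 ± 679 CPM in HDAC3 LKO livers, 6377 ± 632 in SCAP LKO livers and 9376 ± 3375 in Double LKO livers, against 7102 ± 869 in GFP controls (SD). In Double LKO the sum was 5849.5 CPM in library 2, and 12577 and 9702 CPM in libraries 3 and 4. The lowest HDAC3 LKO sum was 10545 CPM, and the highest control sum was 8223 CPM.

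Csad, the decarboxylase that makes the taurine precursor hypotaurine, had the largest fold of the called members. Its levels were 947, 734, 689 and 966 CPM in HDAC3 LKO livers, 357, 496, 348 and 170 CPM in SCAP LKO livers and 331, 607 and 659 CPM in Double LKO livers (libraries 2, 3 and 4), against 141 to 537 CPM in GFP controls, with a median of 305. All 4 HDAC3 LKO livers lay above all controls, and the Double LKO livers overlapped them. The log2 fold change was 1.39 ± 0.30 (SE) in HDAC3 LKO livers (edgeR adjusted p = 0.00424), 0.10 ± 0.31 in SCAP LKO livers (0.958) and 0.74 ± 0.33 in Double LKO livers (0.151). The control lines were ordered without overlap, with 141 and 218 CPM in the HDAC3-floxed line, 283 and 326 in the SCAP-floxed line and 409 and 537 in the HDAC3/SCAP-floxed line. Against its own line the Csad fold was 2.22 in HDAC3 LKO (edgeR adjusted p = 0.00135) and 0.17 in Double LKO (0.85), so the values of Csad depend on which controls are used.

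Cbs, which joins homocysteine to serine, was higher in both groups with Hdac3 deleted. It was at 581, 743, 627 and 559 CPM in HDAC3 LKO livers, 393, 430, 379 and 324 CPM in SCAP LKO livers and 537, 651 and 661 CPM in Double LKO livers, against 333 to 379 CPM in GFP controls, with a median of 366. Every liver with Hdac3 deleted, Double LKO library 2 included, lay above every liver that kept it. The log2 fold change was 0.79 ± 0.10 in HDAC3 LKO (edgeR adjusted p = 3.58e-05), 0.07 ± 0.10 in SCAP LKO (0.882) and 0.77 ± 0.11 in Double LKO (7.39e-05). Against SCAP LKO, Cbs was 0.69 ± 0.12 higher in Double LKO (adjusted p = 0.000927) and 0.72 ± 0.11 higher in HDAC3 LKO (0.000202). The calls of Cbs held in every fit that left out 1 library. Against the controls of their own lines, Cbs was 0.78 higher in HDAC3 LKO (adjusted p = 0.00386) and 0.74 higher in Double LKO (0.0082).

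Cth, the next enzyme, which releases cysteine from cystathionine, was at 458, 628, 456 and 503 CPM in HDAC3 LKO livers, 314, 323, 334 and 238 CPM in SCAP LKO livers and 248, 548 and 404 CPM in Double LKO livers, against 235 to 357 CPM in GFP controls (median 252). Only Double LKO library 2 of the livers with Hdac3 deleted lay inside the control range. The log2 fold change was 0.88 ± 0.18 in HDAC3 LKO (edgeR adjusted p = 0.00244) and 0.52 ± 0.19 in Double LKO (0.0814), or 0.77 without library 2 (0.0043). Cdo1, the cysteine dioxygenase at the start of the taurine route, had folds of 0.40 ± 0.15 in HDAC3 LKO (adjusted p = 0.0905) and 0.42 ± 0.16 in Double LKO (0.0979), the second 0.66 without library 2 (0.00263).

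Gnmt, a methyltransferase that uses S-adenosylmethionine to methylate glycine, was at 2096, 2380, 1884 and 2245 CPM in HDAC3 LKO livers, 1199, 940, 1160 and 770 CPM in SCAP LKO livers and 875, 2004 and 1606 CPM in Double LKO livers, against 883 to 1428 CPM in GFP controls (median 1068). All 4 HDAC3 LKO livers lay above the controls, while Double LKO library 2 lay below all of them and the other two above. The log2 fold change was 0.95 ± 0.19 in HDAC3 LKO (edgeR adjusted p = 0.00248) and 0.43 ± 0.21 in Double LKO (0.203), or 0.70 without library 2 (0.0149). Against its own line the HDAC3 LKO fold of Gnmt was 0.73 (adjusted p = 0.105). Mat1a, the S-adenosylmethionine synthetase of adult liver, was at 4541 to 5829 CPM in HDAC3 LKO livers, against 3007 to 4193 CPM in GFP controls, with no overlap. Its fold of 0.49 ± 0.16 was close to the threshold (adjusted p = 0.0485), and the call was lost in 9 of 10 fits that left out 1 library, with adjusted p from 0.0405 to 0.158. Ahcy, which splits S-adenosylhomocysteine, was not called in any comparison, with a fold of 0.38 ± 0.22 in HDAC3 LKO (0.295) and -0.02 ± 0.25 in Double LKO (0.979), or 0.28 without library 2 (0.453).

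Bhmt, the betaine-dependent enzyme that methylates homocysteine, had the largest difference between the single knockouts. Its levels were 882, 615, 1071 and 1009 CPM in HDAC3 LKO livers, 184, 132, 272 and 160 CPM in SCAP LKO livers and 238, 1041 and 647 CPM in Double LKO livers, against 97.7 to 1180 CPM in GFP controls (median 339). The HDAC3 LKO and SCAP LKO livers did not overlap, and the controls spanned both. Bhmt was 2.26 ± 0.57 log2 units higher in HDAC3 LKO than in SCAP LKO (edgeR adjusted p = 0.0119), with folds over GFP controls of 0.99 ± 0.49 for HDAC3 LKO (0.205), -1.27 ± 0.52 for SCAP LKO (0.363) and 0.51 ± 0.54 for Double LKO (0.61). The HDAC3-floxed controls were at 1180 and 397 CPM, the SCAP-floxed at 583 and 282 and the HDAC3/SCAP-floxed at 161 and 97.7. Without the control at 1180 CPM the HDAC3 LKO fold was 1.56 (adjusted p = 0.0181). Against its own line Double LKO was 2.31 higher (adjusted p = 0.02) and HDAC3 LKO 0.18 (0.876). Bhmt2, a close relative beside Bhmt that methylates homocysteine from S-methylmethionine, was at 172 to 187 CPM in HDAC3 LKO livers and 75.9 to 156 CPM in Double LKO livers, against 122 to 258 CPM in GFP controls, and was not called. Reads shared by these similar sequences could be split between them, so their levels are uncertain.

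**Figure D3:**
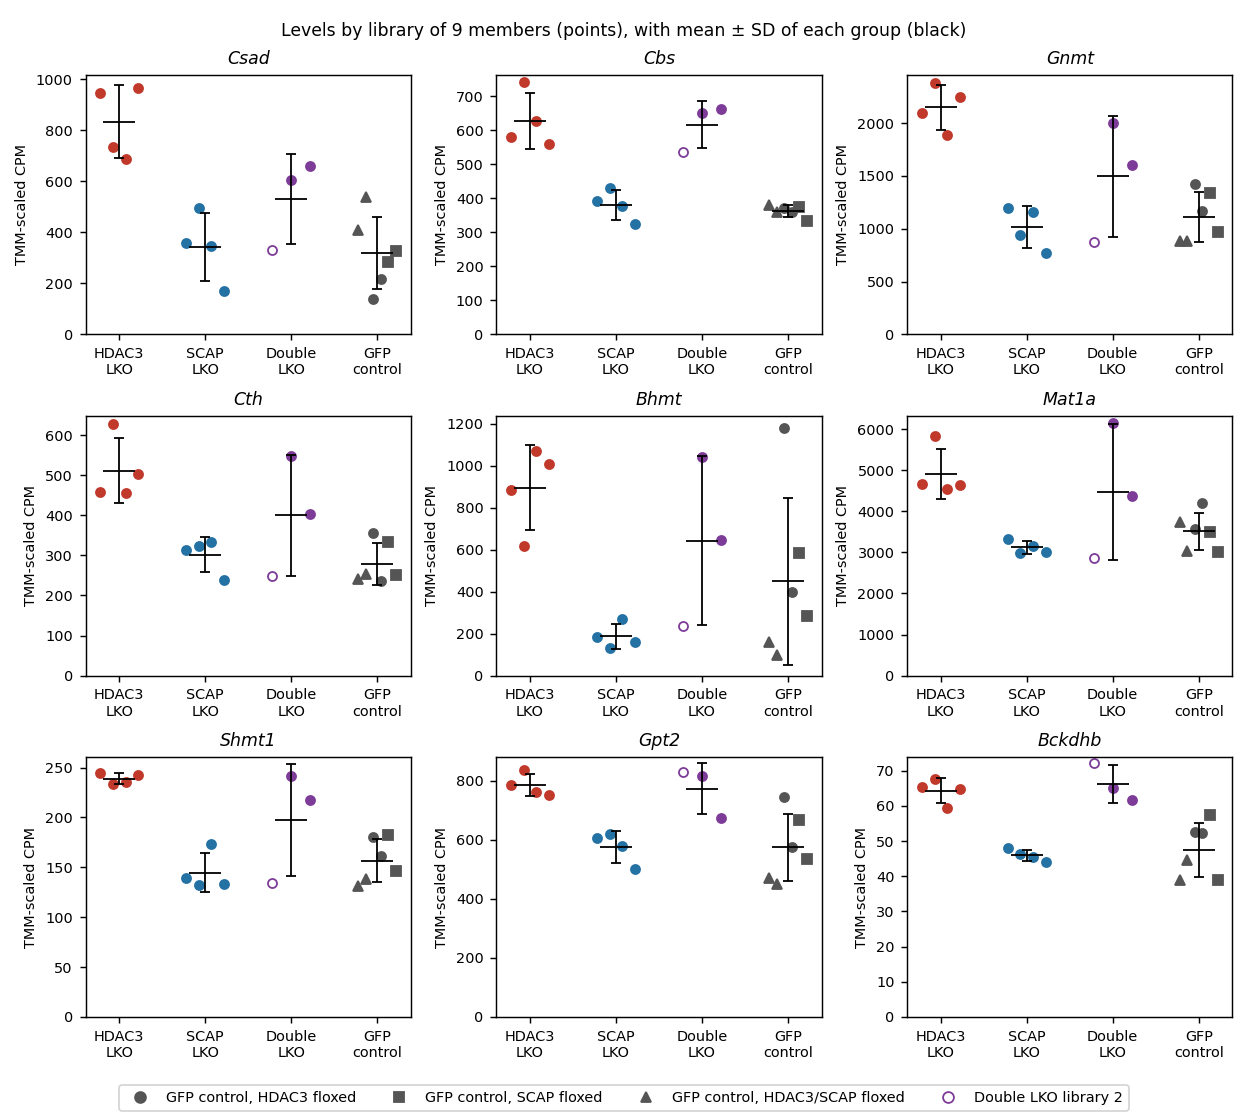
Levels (TMM-scaled CPM, y axes from 0) of 9 members in each library by group, with mean ± SD in black; marker shapes part the 3 control lines, and the open circle is Double LKO library 2. Cbs separates all livers with Hdac3 deleted from the rest, while Bhmt controls run from 97.7 to 1180 CPM.

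Promoter sequence is shown for 3 genes of this role: Cbs, higher in every liver with Hdac3 deleted; Gnmt, higher in HDAC3 LKO; and Bhmt, with the largest difference between the single knockouts. The RefSeq promoter table (GRCm38.p6) held 27 of the 35 members by symbol; Asl, Arg1, Cps1, Cth, Gpt, Cdo1, Nnmt and Mat1a had no entry. Each window holds the 250 bases before the annotated start, 5′ to 3′ on the minus strand: chr17:31637206-31637455 for Cbs, chr17:46729166-46729415 for Gnmt and chr13:93637759-93638008 for Bhmt. Capitals mark exact matches, on either strand, to 4 motifs: the E-box CACGTG, the sterol regulatory element core TCACNCCAC, the REV-ERB and ROR site core TAGGTCA, and the nuclear receptor half-site AGGTCA, which lies within the preceding motif.
Cbs: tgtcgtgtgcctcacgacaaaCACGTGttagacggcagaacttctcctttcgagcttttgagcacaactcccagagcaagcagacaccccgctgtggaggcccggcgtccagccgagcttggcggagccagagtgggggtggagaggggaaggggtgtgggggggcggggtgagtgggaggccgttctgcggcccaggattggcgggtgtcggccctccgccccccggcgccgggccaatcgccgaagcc
Gnmt: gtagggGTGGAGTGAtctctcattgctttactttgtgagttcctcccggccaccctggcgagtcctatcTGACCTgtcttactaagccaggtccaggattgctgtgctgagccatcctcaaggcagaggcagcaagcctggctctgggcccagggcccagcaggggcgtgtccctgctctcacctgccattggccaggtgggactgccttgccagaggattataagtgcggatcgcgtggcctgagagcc
Bhmt: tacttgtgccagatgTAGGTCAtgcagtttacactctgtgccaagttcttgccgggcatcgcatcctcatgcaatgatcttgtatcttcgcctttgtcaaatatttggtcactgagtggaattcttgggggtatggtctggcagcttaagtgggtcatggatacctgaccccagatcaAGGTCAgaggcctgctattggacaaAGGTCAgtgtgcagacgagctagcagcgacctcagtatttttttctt
The Cbs window held 1 E-box, a motif in 6.02% of all 32851 windows of this length, and of the other members only the Ass1 window held one. The Gnmt window held 1 sterol regulatory element core (1.05% of all windows; no other member) and 1 half-site. The Bhmt window held 1 TAGGTCA, also found in the Mthfd1 window (2.23% of all), and 3 half-sites with the one inside it counted. At least 1 window held a half-site in 10 of the 27 members: Ahcy, Bckdhb, Bhmt, Gnmt, Got1, Got2, Hgd, Mthfd1, Nags and Tdo2. Of all single windows, 14% held one. The 10 of 27 counts genes, which can have several windows, and the 14% counts windows, so these shares are not compared. Csad has 2 annotated starts, and neither window held any of the 4 motifs. Such matches describe letters in the sequence, and binding at these windows was not analysed here.

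Of the serine and folate genes, Shmt1, the cytosolic serine hydroxymethyltransferase, was at 245, 233, 236 and 242 CPM in HDAC3 LKO livers, 139, 132, 173 and 133 CPM in SCAP LKO livers and 134, 241 and 217 CPM in Double LKO livers, against 132 to 182 CPM in GFP controls (median 154). The HDAC3 LKO livers were close together and above all controls. The log2 fold change was 0.61 ± 0.13 in HDAC3 LKO (edgeR adjusted p = 0.00483), -0.12 ± 0.14 in SCAP LKO (0.853) and 0.34 ± 0.15 in Double LKO (0.145), the last 0.55 without library 2 (0.00447). Shmt2, its mitochondrial counterpart, was 0.41 ± 0.11 higher in HDAC3 LKO (adjusted p = 0.019) and 0.39 ± 0.12 higher in Double LKO (0.0374). The HDAC3 LKO call of Shmt2 was lost without replicate 3 (0.0606) or 4 (0.0629), and the Double LKO call without Double LKO library 3 (0.253) or 4 (0.153), either HDAC3/SCAP-floxed control (0.0689 and 0.072) or SCAP-floxed control 2 (0.0603). Mthfd1, the folate enzyme with several activities in the cytosol, had folds of 0.34 ± 0.15 in HDAC3 LKO (0.148) and 0.09 ± 0.16 in Double LKO (0.785), or 0.32 without library 2 (0.133). Psat1 had a fold of -1.45 ± 0.84 in HDAC3 LKO (0.281), at 0.364 to 1.33 CPM against 0.587 to 5.28 CPM in GFP controls, and reached 7.59 CPM in Double LKO library 2.

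In the urea cycle, edgeR and DESeq2 each called 0 of 6 members in HDAC3 LKO or SCAP LKO livers against GFP controls. Of all genes, edgeR called 13.9% and 1.19% there, and DESeq2 14% and 1.92%. At an unadjusted p under 0.05 in edgeR there were 3 and 0 members, beside 27.2% and 10.7% of all genes. In Double LKO livers 1, Nags, was called by both, beside 13.9% of all genes by edgeR and 14.4% by DESeq2. The summed level was 10353 ± 1298 CPM in HDAC3 LKO livers, 7423 ± 1359 in SCAP LKO livers and 6544 ± 2803 in Double LKO livers, against 8617 ± 2386 in GFP controls (SD), and each knockout overlapped the controls. The control sums were 12388 and 8938 CPM in the HDAC3-floxed line, 10276 and 7172 in the SCAP-floxed line and 6619 and 6312 in the HDAC3/SCAP-floxed line. Double LKO library 2 was at 3429.98 CPM, below both controls of its own line, and libraries 3 and 4, at 8866 and 7336 CPM, were above both. The HDAC3 LKO sums lay inside the range of their own line. Cps1, which fixes ammonia in the first step, was at 6478, 8537, 8023 and 6473 CPM in HDAC3 LKO livers, 5336, 4823, 6164 and 3806 CPM in SCAP LKO livers and 2070, 5965 and 4855 CPM in Double LKO livers, against 4199 to 9309 CPM in GFP controls (median 5879). The low end of the Double LKO range rests on library 2. Libraries 3 and 4 lay above the HDAC3/SCAP-floxed controls, at 4580 and 4199 CPM. The log2 fold change of Cps1 in Double LKO over all 6 controls was -0.54 ± 0.28 (edgeR adjusted p = 0.242), and -0.21 (0.639) with library 2 and SCAP LKO replicate 4 left out.

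Ass1, which makes argininosuccinate, was at 129, 245, 149 and 149.7 CPM in HDAC3 LKO livers, 110, 96.8, 98.3 and 76.9 CPM in SCAP LKO livers and 56.8, 123 and 91.3 CPM in Double LKO livers, against 81.9 to 178 CPM in GFP controls (median 112). It was 0.82 ± 0.25 higher in HDAC3 LKO than in SCAP LKO (edgeR adjusted p = 0.0364), a call lost in 5 of 8 fits that left out 1 library: without HDAC3 LKO replicate 2 (0.147) or 4 (0.0541), or SCAP LKO replicate 2 (0.0722), 3 (0.0705) or 4 (0.108). The folds of Asl and Arg1, which split argininosuccinate and arginine, were 0.40 ± 0.24 (0.304) and 0.39 ± 0.15 (0.102) in HDAC3 LKO. Otc, the mitochondrial step that makes citrulline, had a fold of -0.00 ± 0.20 in HDAC3 LKO (0.993). Nags was at 49.2, 68.4 and 68.4 CPM in Double LKO livers, against 45.2 to 53.2 CPM in GFP controls, and its fold was 0.37 ± 0.10 (adjusted p = 0.0137), or 0.50 without library 2 (0.000444). The call was lost without library 3 (0.0776) or library 4 (0.107), and with own-line controls.

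Among the transaminases, Gpt2, the mitochondrial alanine transaminase, was at 787, 835, 763 and 752 CPM in HDAC3 LKO livers and 828, 817 and 673 CPM in Double LKO livers, against 450.3 to 746 CPM in GFP controls (median 555). All HDAC3 LKO livers lay above the controls, the lowest at 752 CPM. The folds were 0.45 ± 0.13 in HDAC3 LKO (edgeR adjusted p = 0.0228) and 0.43 ± 0.14 in Double LKO (0.0448), but the HDAC3 LKO call was lost without HDAC3 LKO replicate 1 (0.0554) or 2 (0.0646) or HDAC3/SCAP-floxed control 1 (0.0517). The Double LKO call was lost in 6 of 9 fits without 1 library, with adjusted p of 0.00838 to 0.131 (Double LKO library 2 or 3, either HDAC3/SCAP-floxed control, HDAC3-floxed control 2 or SCAP-floxed control 2). Glud1, which releases ammonia from glutamate, was at 774, 878 and 812 CPM in Double LKO livers, against 603 to 696 CPM in GFP controls, with no overlap. Its fold was 0.32 ± 0.09 in Double LKO (adjusted p = 0.0232), 0.24 ± 0.08 in SCAP LKO (0.247) and -0.04 ± 0.09 in HDAC3 LKO (0.838), and the Double LKO livers lay above every HDAC3 LKO liver, at 583 to 673 CPM. The Glud1 call was lost without Double LKO library 3 (0.0999) or 4 (0.066), and with own-line controls. Those controls were at 686 and 673 CPM, above the HDAC3-floxed controls, at 624 and 603 CPM. The cytosolic aspartate transaminase Got1 ranged from 116 to 509 CPM in the controls, and its fold in HDAC3 LKO was 0.58 ± 0.34 (0.294), or 1.05 (0.00589) without the control at 509 CPM. That control is of the HDAC3-floxed line, whose other control, at 230 CPM, was the next highest. HDAC3 LKO livers, at 224, 468, 285 and 310 CPM, overlapped these own-line controls. Got2 and Gpt, its mitochondrial partner and the cytosolic alanine transaminase, had folds of 0.17 ± 0.09 (0.258) and 0.17 ± 0.15 (0.516) in HDAC3 LKO.

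Of the tryptophan and tyrosine genes, edgeR called 0 of 5 in any of the 6 pairwise comparisons, beside 1.19 to 14.7% of all genes. At an unadjusted p under 0.05 there were 0 to 2 in each, beside 10.7 to 27.5%. DESeq2 called Hgd, at -0.51 in Double LKO against HDAC3 LKO (0.0308), beside 2% of all genes. It also called Hpd, at 0.60 in HDAC3 LKO against SCAP LKO (0.034), beside 14.7%. Hgd was at 415 and 424 CPM in HDAC3/SCAP-floxed controls and at 594 and 488 CPM in HDAC3-floxed controls. Tdo2, which opens the tryptophan ring, was at 2358, 2234, 2242 and 2251 CPM in HDAC3 LKO livers, 2509, 2503, 2731 and 1824 CPM in SCAP LKO livers and 751, 2331 and 2000 CPM in Double LKO livers, against 1424 to 1867 CPM in GFP controls (median 1689). HDAC3 LKO livers lay above all controls, and SCAP LKO livers did but for replicate 4. The log2 fold change was 0.43 ± 0.21 in HDAC3 LKO (edgeR adjusted p = 0.179), 0.51 ± 0.20 in SCAP LKO (0.343) and 0.01 ± 0.23 in Double LKO (0.985). With Double LKO library 2 and SCAP LKO replicate 4 left out, a choice made after seeing that they stand apart, the same folds of Tdo2 were 0.43 (0.00204), 0.61 (0.000761) and 0.36 (0.0348). Hpd, which acts on the tyrosine product hydroxyphenylpyruvate, was at 2058 to 2442 CPM in HDAC3 LKO livers, against 1293 to 1983 CPM in GFP controls, and its fold was 0.48 ± 0.19 (0.105). Kmo, which hydroxylates kynurenine, and Hgd and Fah, later steps of tyrosine breakdown, had folds in HDAC3 LKO of -0.06 ± 0.17 (0.855), 0.21 ± 0.12 (0.302) and 0.07 ± 0.15 (0.797).

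Bckdhb, a subunit of the complex that commits branched-chain keto acids to breakdown, was at 65.5, 67.7, 59.3 and 64.7 CPM in HDAC3 LKO livers, 47.9, 46.2, 45.4 and 44.04 CPM in SCAP LKO livers and 72.2, 65.0 and 61.6 CPM in Double LKO livers, against 39.0 to 57.5 CPM in GFP controls (median 48.4). Like Cbs, it was higher in every liver with Hdac3 deleted than in any liver that kept it. Its fold was 0.43 ± 0.10 in HDAC3 LKO (edgeR adjusted p = 0.00611), -0.05 ± 0.10 in SCAP LKO (0.921) and 0.47 ± 0.11 in Double LKO (0.00551), and it was 0.53 ± 0.12 higher in Double LKO than in SCAP LKO (0.00866). The calls of Bckdhb held in every fit that left out 1 library. Its partner subunit Bckdha had a fold of 0.26 ± 0.12 in HDAC3 LKO (0.156), and the branched-chain transaminase Bcat2 one of 0.15 ± 0.14 (0.548). Prodh, the first enzyme of proline breakdown, was at 220 to 323 CPM in HDAC3 LKO livers and 132 to 187 CPM in SCAP LKO livers, with no overlap and a difference of 0.78 ± 0.26 that missed the threshold (0.0502). Nnmt varied widely between livers of a group, at 21.3, 115, 51.4 and 14.2 CPM in HDAC3 LKO livers, against 36.6 to 127 CPM in GFP controls, and was not called.

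The 6 controls came from 3 lines, and the fit above treats them as 1 group. Against the 2 controls of its own line, HDAC3 LKO had 2 called members, Csad and Cbs, beside 6.87% of all genes. The other 7 kept positive folds that missed the threshold: Cth 0.79 (edgeR adjusted p = 0.0765), Gnmt 0.73 (0.105), Shmt1 0.48 (0.123), Mat1a 0.34 (0.416), Bckdhb 0.30 (0.162), Shmt2 0.30 (0.255) and Gpt2 0.25 (0.349). Against its own line Double LKO had 5 called members, beside 5.85% of all genes: Bhmt at 2.31 (0.02), Gpt2 and Cbs at 0.74 (0.00789 and 0.0082), Bckdhb at 0.66 (0.00675) and Shmt2 at 0.55 (0.0475). Nags and Glud1, called over the pooled controls, were not called against the own line. With own-line controls the contrast of Double LKO with the sum of the single knockouts was -2.22 for Csad and 3.34 for Bhmt, neither called (adjusted p = 0.713 for both).

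**Figure D4:**
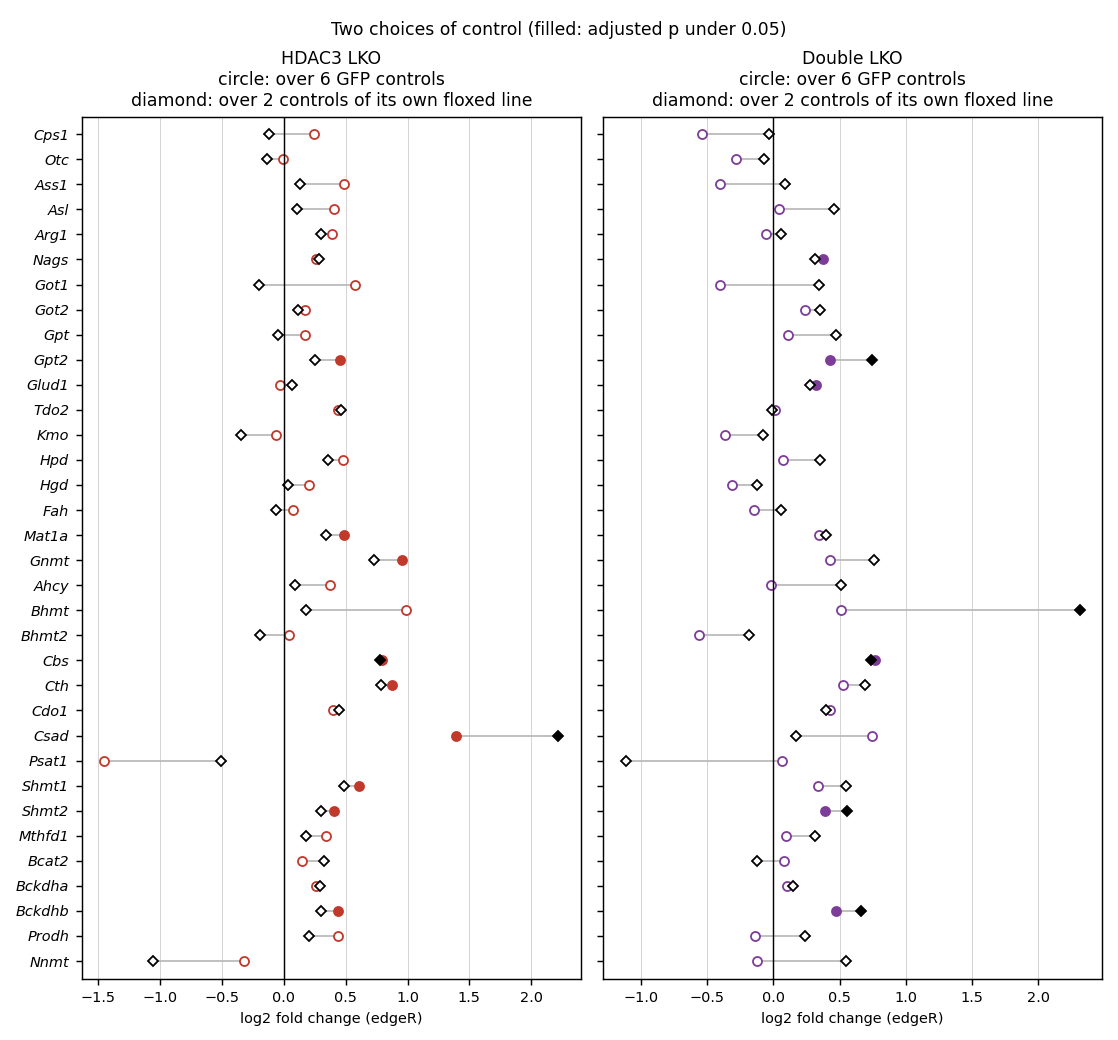
Log2 fold change of each tested member in HDAC3 LKO (left) and Double LKO livers (right) over all 6 GFP controls (circles) and over the 2 controls of the same floxed line (diamonds); filled symbols have an adjusted p under 0.05. Csad and Bhmt move with the choice of controls: Csad in HDAC3 LKO is at 2.22 over its own line and 1.39 over all 6, and Bhmt in Double LKO at 2.31 and 0.51.

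A wider list of 139 genes of amino acid handling outside the members, of which 130 were tested, had 21 higher and 5 lower in HDAC3 LKO livers, 0 and 1 in SCAP LKO livers and 12 and 6 in Double LKO livers, each against GFP controls. That is 16.2% higher and 3.85% lower in HDAC3 LKO (7.88% and 6% of all genes), 0% and 0.769% in SCAP LKO (0.258% and 0.933%) and 9.23% and 4.62% in Double LKO (7.56% and 6.34%), the last near the shares of all genes. The list's median log2 fold change was 0.18 for HDAC3 LKO, -0.04 for SCAP LKO and 0.04 for Double LKO. Oat, ornithine aminotransferase, had the lowest adjusted p of the list in HDAC3 LKO, at 1499.5 to 2187 CPM in HDAC3 LKO livers and 1351 to 1922 CPM in Double LKO livers, against 449.7 to 786 CPM in GFP controls. Its fold was 1.71 ± 0.17 in HDAC3 LKO (edgeR adjusted p = 3.02e-06) and 1.59 ± 0.18 in Double LKO (6.46e-06). In HDAC3 LKO the kynurenine pathway genes Kynu and Acmsd were higher by 0.73 ± 0.13 (0.000915) and 1.51 ± 0.35 (0.00687), as were Chdh, which makes betaine aldehyde from choline, by 0.69 ± 0.11 (0.000265), Fpgs, which adds glutamates to folate, by 0.69 ± 0.11 (0.00028), the sulfite oxidase Suox by 0.59 ± 0.12 (0.00222) and Ppm1k, the phosphatase that activates the branched-chain complex, by 0.78 ± 0.18 (0.00598).

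Among the wider genes that fell in HDAC3 LKO were Prodh2, a hydroxyproline dehydrogenase, at -0.98 ± 0.19 (edgeR adjusted p = 0.00158), the methionine synthase Mtr at -0.44 ± 0.13 (0.0293), and the neutral amino acid carrier Slc38a2 at -0.48 ± 0.15 (0.0388). In Double LKO, Prodh2 fell by 1.00 ± 0.21 (0.00277), Slc38a2 by 0.75 ± 0.17 (0.00493) and Ccbl1, a kynurenine aminotransferase, by 0.93 ± 0.14 (0.000171), while the glutathione synthetase Gss was higher by 0.93 ± 0.16 (0.000501). The 1 call in SCAP LKO was Qdpr, which recycles the cofactor of phenylalanine hydroxylase, at 66.4 to 87.3 CPM in SCAP LKO livers against 109 to 174 CPM in GFP controls and a fold of -0.82 ± 0.14 (0.00232). Qdpr was also lower in Double LKO than in HDAC3 LKO, at -0.92 ± 0.16 (0.00323). Of the regulators, Cebpb and Cebpa, liver transcription factors, were 0.63 ± 0.18 (0.0218) and 0.41 ± 0.12 (0.0279) higher in HDAC3 LKO.

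Markers of position in the lobule were followed in the same libraries. Of 10 periportal markers, 0 were called in HDAC3 LKO against GFP controls, with a median log2 fold change of 0.46 and sums of 6902 to 8651 CPM in HDAC3 LKO livers, against 5823 to 8944 CPM in GFP controls. Of 12 pericentral markers, 2 (Oat and Cyp1a2) were higher and 0 lower, with a median log2 fold change of 0.18. Of all tested genes, 7.88% were higher and 6% lower. The pericentral sums were 10606 to 15836 CPM in HDAC3 LKO livers, against 10073 to 11552 CPM in GFP controls. In Double LKO library 2 the periportal sum was 3952 CPM, with Hal at 32.0 CPM and Sds at 7.82 CPM, and the pericentral sum was 12359 CPM, while the urea cycle members were low there, as given above. The other two Double LKO libraries had periportal sums of 9298 and 6895 CPM and pericentral sums of 17673 and 15777 CPM, so that all Double LKO pericentral sums lay above those of the controls. In Double LKO against GFP controls, 3 pericentral markers were called higher and 1 lower, and 1 periportal marker was called higher and 0 lower. Of all tested genes, 7.56% were higher and 6.34% lower. The median log2 fold change was 0.12 for the pericentral and -0.06 for the periportal markers. The macrophage markers Cd68 and Marco were at 27.6 and 37.5 CPM in Double LKO library 2 and at 14.1 and 31.2 CPM in SCAP LKO replicate 4, against 3.68 to 9.47 and 2.89 to 11.4 CPM in GFP controls. The whole list of 10 macrophage and Kupffer cell markers, with none called in any knockout against GFP controls, summed to 356 to 461 CPM in HDAC3 LKO livers, 348 to 540 CPM in SCAP LKO livers and 348 to 427 CPM in Double LKO livers, against 262 to 554 CPM in GFP controls. Double LKO library 2, at 427 CPM, and SCAP LKO replicate 4, at 540 CPM, lay inside the control range. The list as a whole thus did not rise there with Cd68 and Marco. The part of these markers in the members' values was not tested.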

How the data were processed

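RNA of mouse liver was measured by sequencing in 17 libraries. The authors deposited whole-number read counts per RefSeq transcript, not normalized; Bowtie, HOMER, edgeR and the mm9 build are named in the submitters' processing notes, while no source used here gives the RNA aligner or strand setting. Of 28644 transcripts, the 22869 marked as the best one of their gene were used; 17 other value columns were not used. Genes passing edgeR's filterByExpr (12009) were fitted in 1 model of 4 groups (HDAC3 LKO, SCAP LKO, Double LKO, GFP controls) with TMM scaling and edgeR 4.0.16 quasi-likelihood tests in R 4.3.3. P-values were adjusted by Benjamini-Hochberg over all tested genes, and a call needs an adjusted p under 0.05. Standard errors are the log2 fold change divided by the root of the F statistic and are approximate. The script was tested on simulated data. Double LKO libraries and the SCAP-floxed and HDAC3/SCAP-floxed controls carry the numbers of their table columns. limma 3.58.1 and DESeq2 1.42.0 served as alternatives, with leaving out each library in turn and controls of the same floxed line. The named genes are all members, and from each wider list some of the 3 called genes with the lowest p per comparison, with a few left out as not reported here. The members and lists were chosen with earlier results of these data known. Peak lists were not used here, for want of gene positions in their build. Counts differed beyond sampling noise in all 30 pairs of libraries within a group. Replicate numbers did not pair the livers.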

Additional observations from a re-analysis of the deposited data

Results flagged for a closer look

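In each group of 4 to 6 livers, the gap between the highest or lowest value of each member and its neighbour was set against the full range (Dixon's test). Of 102 groups checked, 7 had a liver that stood apart, and chance gives about 1 in 20. The GFP groups pool the floxed lines, so this rate need not hold for them. Otc was at 556 CPM in HDAC3 LKO replicate 3, with the others at 497 to 505 CPM. Tdo2 was at 2358 CPM in HDAC3 LKO replicate 1, with the others at 2234 to 2251 CPM. In HDAC3 LKO replicate 2, Hgd was at 635 CPM (others 516 to 534 CPM) and Mat1a at 5829 CPM (others 4541 to 4661 CPM). Shmt1 was at 173 CPM in SCAP LKO replicate 3, with the others at 132 to 139 CPM. Among the GFP controls, Got1 was at 509 CPM in HDAC3-floxed replicate 1, where the next was 230.4 CPM and the lowest 116 CPM, and Bckdha was at 273 CPM in SCAP-floxed library 1, with the others at 225 to 239.6 CPM.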

How the results depend on the processing

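No member called by the fit above changed direction under any alternative. Of 524 values compared for members called in either fit, 347 kept call and direction, 74 lost the call and 103 gained one. The count of called members in HDAC3 LKO against GFP controls (9) (13.9% of all genes) was 2 with own-line controls (6.87%) and 4 with the replicate block (6.62%). It was 20 with sample quality weights in limma (19.8%) and 16 (17.7%) with Double LKO library 2 and SCAP LKO replicate 4 left out. Leaving out 1 library gave 7 to 10 (8.93 to 14.7%). In SCAP LKO (0) the count was 2 with the replicate block (2.01%), Bhmt and Kmo, both lower. DESeq2 gave 1, Glud1 (1.92%). Quality weights (1.95%) and leaving both libraries out (1.61%) each gave 1, Tdo2. All fits without 1 library gave 0 (0.839 to 1.37%). In Double LKO (6) the count was 3 without the filter on low counts (8.02%), 14 with quality weights (23.9%) and 13 (13.9%) with both libraries out. Without 1 library it was 3 to 10 (9.94 to 13.6%). Double LKO against HDAC3 LKO (0) gave 2 with DESeq2 (2%) and 2 with quality weights (4.24%), and 0 without 1 library (0.936 to 1.53%). Double LKO against SCAP LKO (2) gave 5 with DESeq2 (9.03%), 9 with quality weights (16.4%) and 7 with both libraries out (6.87%). Without 1 library it gave 2 to 10 (5.58 to 8.76%). HDAC3 LKO against SCAP LKO (11) gave 19 with the replicate block (14.5%), 17 with quality weights (20.1%) and 6 to 10 without 1 library (10.4 to 11.9%). The contrast of Double LKO with the single knockouts stayed at 0 members in each. The percentages are the shares of all genes called in the same fit, or their range over the fits without 1 library. The cause was not tested. The replicate block could use only the numbered libraries (HDAC3 LKO, SCAP LKO and HDAC3-floxed controls). SCAP LKO was set there against the controls of another line, at 1180 and 397 CPM for Bhmt and 468 and 393 CPM for Kmo. SCAP loss and floxed line cannot be told apart in its 2 calls. Same-numbered livers correlated at -0.0605 to 0.108, so they share only a number. Size factors by median of ratios moved no count beyond 1.5 times. Leaving both libraries out was chosen after seeing the data. Members with peaks and levels per length were not run.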
